A study of Homo sapiens with 29 samples.

Results

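The transcripts of the RB pocket proteins and the E2F factors were followed as 10 genes, RB1, RBL1, RBL2, E2F1, E2F2, E2F3, E2F7, E2F8, TFDP1 and LIN9, out of 28266 gene symbols in the count table. They were chosen by name, as members of 1 regulatory family, and every one of them had a row in the table. Counts came from polyadenylated RNA of IMR90 ER:RAS cells, human lung fibroblasts that carry a retrovirally delivered fusion of the estrogen receptor with oncogenic RAS. All 3 groups carried this fusion, all received a transfected siRNA before treatment, and all were collected on day 7. DMSO_siNT held 6 libraries of growing cells given the solvent DMSO and a non-targeting siRNA, siNT. 4OHT_siNT held 6 libraries of cells with the same control siRNAs in which 4-hydroxytamoxifen (4OHT) had switched RAS on, which drives oncogene-induced senescence. 4OHT_siSMARCA4 held 6 libraries of 4OHT-treated cells with siRNA against SMARCA4, the ATPase of the SWI/SNF chromatin remodeling complex. Each group had 3 libraries with an siRNA numbered 2 and 3 with an siRNA numbered 4. A set name, a number followed by V or VM, also marked the libraries, and a library is named here by siRNA number and set (4-2V is siRNA 4 in set 2V). All 6 libraries of 4OHT_siNT were VM sets, while DMSO_siNT held 3 V and 3 VM sets. 4OHT_siSMARCA4 held 3 V sets, 2 VM sets and a library with siRNA 2 whose column carried a set name that no title with that siRNA had, called the unlabelled library. The model is 1 cell line with 1 drug-switched oncogene. Nothing in the labels says that libraries of a group came from separate cultures, so p-values measure the spread between these libraries, which may be technical.

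Pocket proteins bind E2F transcription factors and hold the genes of DNA replication and division silent until cyclin-dependent kinases phosphorylate them at the end of G1. E2F1, E2F2 and E2F3 are the activators that pocket protein RB1 restrains, E2F7 and E2F8 are atypical repressors that bind DNA without a DP partner, and TFDP1 encodes the DP partner of the other E2Fs. RBL1 (p107) and RBL2 (p130) join E2F4, DP and the MuvB core, to which LIN9 belongs, in the DREAM complex, which represses cell cycle genes in cells that have left the cycle. Senescent fibroblasts are arrested cells in which RB family proteins are known to keep these genes off.

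Summed counts ranged from 9657309 to 18039313 per library. Levels are scaled to the library total by the TMM method, and a log2 value of 1 is a 2-fold difference. SMARCA4 checked the labels: its mean level was 217 ± 15.3 counts-per-million (CPM; SD, n = 6) in DMSO_siNT, 301 ± 20.9 in 4OHT_siNT and 99.0 ± 27.6 in 4OHT_siSMARCA4. Library 4-2V of DMSO_siNT stood apart from the other 17 on the second principal component, which held 15.4% of the variance, and results that changed without it are given with and without it. All 8 fibroblast markers were present, whose levels summed to between 10937 and 30840 CPM in growing libraries, to between 15178 and 20091 in senescent ones and to between 8775 and 12752 after knockdown, and 5 of 8 were lower after knockdown at an adjusted p under 0.05, which is what called means throughout. In senescent against growing cells 4 of 8 were called lower, and in knockdown against growing cells 7 of 8. Without library 4-2V, 7 of 8 were called lower in each of these comparisons. Of all genes tested, 5.65% were called lower after knockdown, 28.9% in senescence and 27.3% in knockdown against growing cells. Without library 4-2V these shares were 12.9%, 30.3% and 30.5%. The 5 epithelial markers together reached at most 2.51 CPM in any library and the 5 immune and NK cell markers at most 1.195 CPM, with KRT5, SFTPC and NKG7 at 0 in all groups. The 3 endothelial markers summed to between 1.21 and 5.69 CPM, and the one that passed the filter, VWF, was called higher in senescence (1.23 ± 0.28, adjusted p = 0.00121, edgeR). The part of these markers in the results below was not tested.

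Upstream sequences are shown for 5 members, so that genes which fell, rose or were not called can be compared at the level of the E2F recognition sequence. RefSeq promoter windows on GRCh38.p14, 250 bases before to 50 bases after the start, matched 9 of the 10 members by symbol, and E2F8 had none. The E2F motif was searched on both strands as TTTCCCGC, TTTCGCGC, TTTGCCGC or TTTGGCGC, letters that are held by 3.31% of all 35116 windows. Windows of 5 of the 9 members held it: RBL1, E2F1, E2F2, E2F3 and TFDP1. The 9 members had 13 windows in all, so a count of members is not directly comparable with a share of windows. The 150 bases before the start are printed 5′ to 3′ on the strand of the gene, with motif matches in capitals, for RBL1 (minus strand, chr20:37095998-37096147), E2F1 (minus strand, chr20:33686386-33686535), E2F2 (minus strand, chr1:23531234-23531383), E2F3 (plus strand, chr6:20401729-20401878) and E2F7 (minus strand, chr12:77065570-77065719).
RBL1: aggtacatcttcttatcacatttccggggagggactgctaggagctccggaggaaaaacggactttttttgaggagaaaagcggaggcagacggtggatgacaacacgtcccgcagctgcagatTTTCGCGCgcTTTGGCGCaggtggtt
E2F1: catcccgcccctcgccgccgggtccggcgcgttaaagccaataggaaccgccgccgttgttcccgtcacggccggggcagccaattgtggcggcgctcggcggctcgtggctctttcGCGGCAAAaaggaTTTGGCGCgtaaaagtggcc
E2F2: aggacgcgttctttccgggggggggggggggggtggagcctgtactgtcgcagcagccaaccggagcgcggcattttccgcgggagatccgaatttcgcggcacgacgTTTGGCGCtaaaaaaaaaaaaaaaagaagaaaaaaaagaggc
E2F3: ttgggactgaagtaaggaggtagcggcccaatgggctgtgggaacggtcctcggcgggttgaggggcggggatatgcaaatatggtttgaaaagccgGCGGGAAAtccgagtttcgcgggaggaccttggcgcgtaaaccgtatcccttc
E2F7: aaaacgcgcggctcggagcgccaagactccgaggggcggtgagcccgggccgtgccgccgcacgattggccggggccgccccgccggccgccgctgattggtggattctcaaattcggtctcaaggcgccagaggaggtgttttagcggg
RBL1 held 2 matches close together, starting 26 and 16 bases before its start, and E2F1 held 2 matches at 33 and 20 bases. E2F2 held 1 match at 42 bases, E2F3 held 1 at 53 bases and TFDP1 held 1 at 120 bases. No window of RB1, RBL2, E2F7 or LIN9 held these letters. The window listed for RB1 lies at an internal start, 172706 bases from the gene start in GENCODE, so it does not cover the main RB1 promoter. The CHR motif TTTGAA, which MuvB complexes bind at genes of late cell cycle, occurred in windows of RBL2, E2F3 and LIN9 and in 15.2% of all windows. A match is a run of letters and was not tested for binding.

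In growing cells, TFDP1 was by far the most abundant member per length of exon, at 37.3 CPM per kb, followed by E2F3 (8.20), E2F1 (6.34), RB1 (5.85), RBL2 (4.64) and E2F7 (3.52), whose library ranges overlapped from each gene to the next. RBL1 stood at 1.68, LIN9 at 0.871, E2F8 at 0.389 and E2F2 at 0.174 CPM per kb. In 4OHT_siNT, E2F7 stood next below TFDP1, at 20.6 against 31.0 CPM per kb, above E2F3 (8.07), RB1 (6.39), RBL2 (4.42) and E2F1 (2.86). LIN9 (0.467) and RBL1 (0.287) followed with overlapping ranges, while every other neighbour down to RBL1 was separated in all 6 libraries. In 4OHT_siSMARCA4 the order of these 8 genes was the same as in 4OHT_siNT.

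RBL1 was the pocket protein whose transcript fell in senescence, to 17.1% of its level in growing cells. RBL1 (chr20:36996349-37095997, minus strand, GRCh38) encodes p107, the pocket protein that is itself a known E2F target and most abundant in cycling cells. Its lowest, median and highest libraries were 6.63, 10.1 and 13.7 CPM in DMSO_siNT and 1.24, 1.63 and 2.28 CPM in 4OHT_siNT. Every senescent library lay below every growing one. The change was −2.54 ± 0.21 on the log2 scale (SE, adjusted p = 6.91e-09, edgeR quasi-likelihood test with Benjamini-Hochberg adjustment over 13136 genes). Counts behind these levels were 17 to 33 per library in 4OHT_siNT and 56 to 179 in DMSO_siNT. RBL1 exons share 213 bases with a lncRNA on the other strand.

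RB1 and RBL2 showed no called change in senescence. RB1 (chr13:48303744-48599436, plus strand), the retinoblastoma protein itself, ranged from 11.95 through a median of 41.5 to 49.5 CPM in DMSO_siNT and from 37.4 through 41.4 to 43.8 CPM in 4OHT_siNT. The growing group spread over the senescent one, and its lowest value came from library 4-2V, where RB1 was 11.95 CPM against 42.8 ± 7.08 (SD, n = 5) in the other growing libraries. The difference was 0.12 on the log2 scale (95% interval −0.32 to 0.56, adjusted p = 0.645, edgeR), and −0.05 (−0.25 to 0.15) without that library. RBL2 (chr16:53433977-53491648, plus strand), which encodes p130, the pocket protein of resting cells, ranged from 27.5 through 38.7 to 47.3 CPM in DMSO_siNT and from 33.2 through 35.8 to 39.8 CPM in 4OHT_siNT. The groups overlapped, and the difference was −0.07 (−0.40 to 0.25, adjusted p = 0.715, edgeR). RBL2 exons share 609 bases with AKTIP on the other strand, and whether counting used strand is not stated, so its values may include reads of that gene.

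**Figure D1:**
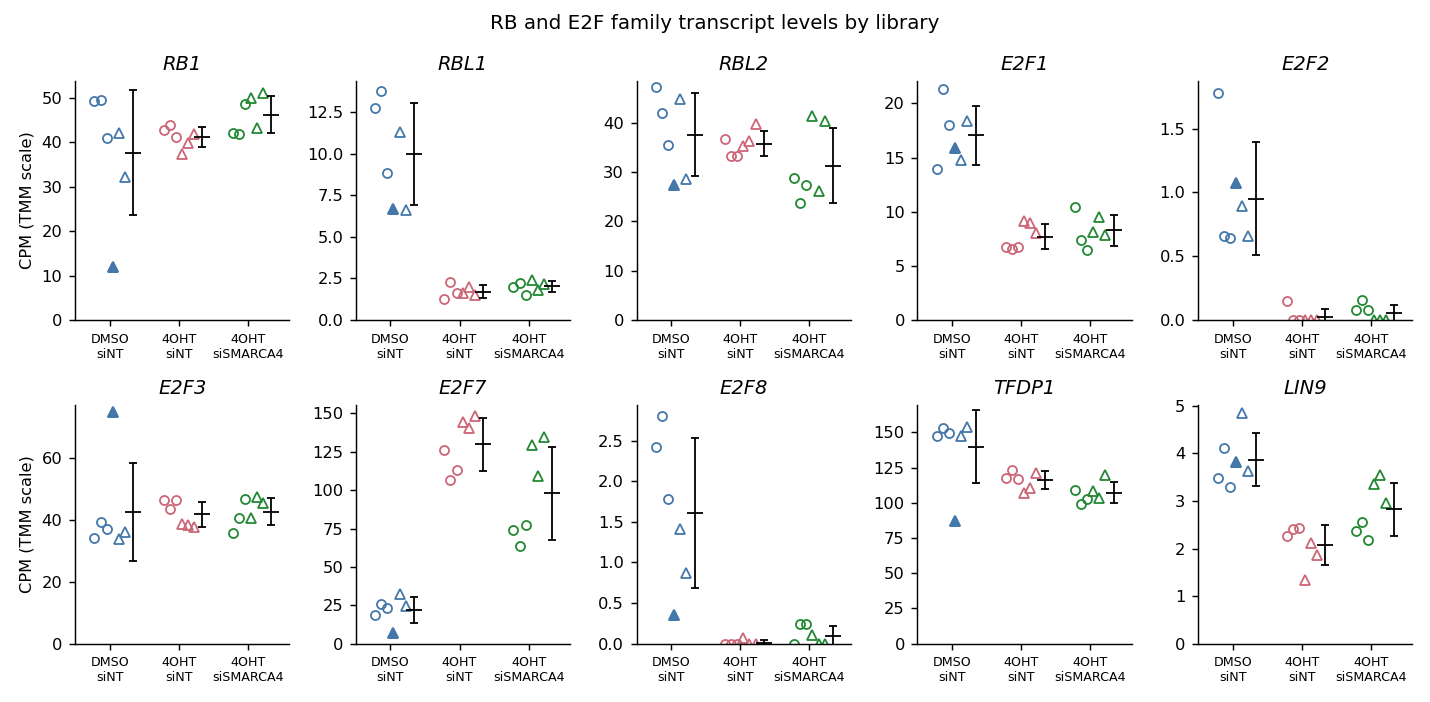
Transcript levels of the 10 members in CPM on the TMM scale, each panel with its own linear axis from 0. Circles are libraries with siRNA 2, triangles those with siRNA 4, the filled triangle is DMSO_siNT library 4-2V, and black bars give mean and SD (n = 6). RBL1, E2F1 and LIN9 lay lower in every 4OHT_siNT library than in every DMSO_siNT library and E2F7 lay higher, while 4-2V stood alone for RB1, E2F3, E2F7 and TFDP1.

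The proportions of the pocket transcripts differed between the groups. RBL1 made up 11.5% to 17.6% of the summed CPM per kb of the 3 pocket genes in DMSO_siNT libraries and 1.82% to 3.40% in 4OHT_siNT libraries. After SMARCA4 knockdown it made up 2.30% to 3.82%. RB1 took a median share of 49.8% in growing libraries, 57.3% in senescent ones and 64.2% after knockdown. The level of RBL2 over that of RBL1, per length, had medians of 2.92 in growing cells, 15.5 in senescent cells and 11.7 in senescent cells with SMARCA4 knockdown. These shares and ratios restate the levels above and were not tested.

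Among the activator E2Fs, E2F1 and E2F2 were lower in senescent cells, and E2F3 was called only in some of the fits without library 4-2V. E2F1 (chr20:33675477-33686385, minus strand), the best known activator of S phase genes, had a lowest, median and highest library of 14.0, 16.9 and 21.3 CPM in DMSO_siNT and 6.57, 7.41 and 9.13 CPM in 4OHT_siNT. The groups did not overlap. E2F1 fell to 45.1% of its growing level, by 1.15 ± 0.14 on the log2 scale (adjusted p = 1.26e-06, edgeR). E2F2 (chr1:23506438-23531233, minus strand), a close relative of E2F1, had 8 to 25 counts in each growing library, with a sum of 72. It had 0 to 2 counts in each 4OHT_siNT library, with a sum of 2, and 5 of those 6 libraries had 0. The ratio of its level in growing over senescent cells was 39.3, with a 95% counting interval of 10.5 to 331. That interval covers counting error only. E2F2 was too low for the main filter, and a fit that kept all 22201 genes with a count called it lower (adjusted p = 7.72e-06, edgeR).

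E2F3 (chr6:20401879-20493714, plus strand), the activator whose locus makes both a cell cycle regulated and a constant product, ranged from 33.9 through a median of 36.6 to 74.8 CPM in DMSO_siNT and from 37.7 through 41.2 to 46.4 CPM in 4OHT_siNT. Library 4-2V was the highest at 74.8 CPM, against 36.1 ± 2.20 (SD, n = 5) in the other growing libraries. The difference was −0.02 on the log2 scale with it (−0.36 to 0.32, adjusted p = 0.934, edgeR) and 0.22 without it (0.04 to 0.40, adjusted p = 0.0357, edgeR). In VM sets alone, which also lack 4-2V, E2F3 was not called (0.23, 0.02 to 0.44, adjusted p = 0.0625, edgeR).

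The atypical repressors E2F7 and E2F8 differed in opposite directions. E2F7 (chr12:77021248-77065569, minus strand), which represses E2F target genes and is known to respond to p53, ranged from 7.29 through 23.98 to 32.5 CPM in DMSO_siNT and from 106 through 133 to 149 CPM in 4OHT_siNT. The lowest senescent library was above the highest growing one. E2F7 was 5.84-fold higher (log2 2.55 ± 0.26, adjusted p = 1.22e-07, edgeR), and without library 4-2V, its lowest, the log2 change was 2.38 ± 0.19. E2F8 (chr11:19224063-19241620, minus strand), its partner in E2F repression, had 3 to 34 counts per growing library, with a sum of 127, and 0 or 1 count per 4OHT_siNT library, with a sum of 1. The ratio of growing over senescent was 139, with a 95% counting interval of 24.4 to 5520, and the fit that kept all genes with a count called it lower (adjusted p = 9.23e-07, edgeR). Per length, E2F7 stood at a median of 0.564 times E2F1 in growing libraries (0.196 to 0.942) and 7.06 times E2F1 in 4OHT_siNT libraries (6.73 to 7.95).

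**Figure D2:**
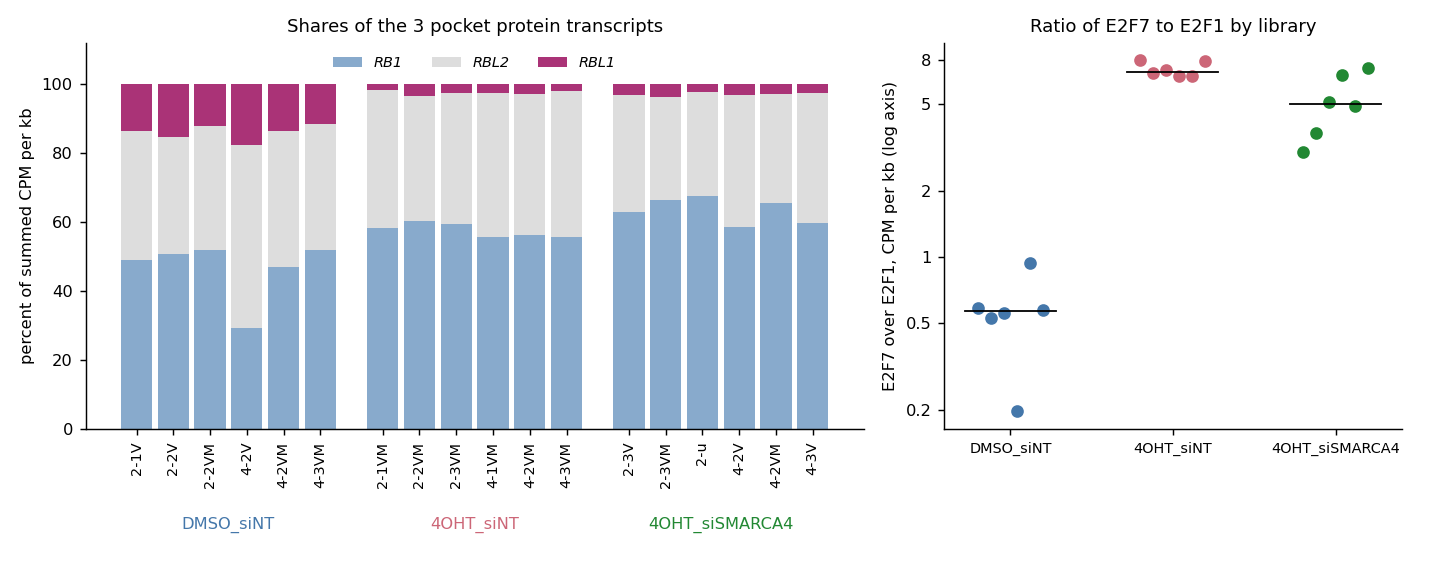
Left, the percent of the summed CPM per kb of RB1, RBL2 and RBL1 that each took in each library (2-u is the unlabelled library). Right, E2F7 over E2F1 in CPM per kb by library on a log axis, with group medians as lines. The RBL1 share was 11.5% or more in all growing libraries and 3.82% or less in all 4OHT libraries, and E2F7 exceeded E2F1 in all 4OHT libraries and in none of the growing ones.

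LIN9 fell and TFDP1 was near the threshold. LIN9 (chr1:226231149-226309869, minus strand), a subunit of the MuvB core, ranged from 3.28 through 3.73 to 4.85 CPM in DMSO_siNT and from 1.34 through 2.19 to 2.44 CPM in 4OHT_siNT, with no overlap. It fell by 0.89 ± 0.18 on the log2 scale (adjusted p = 0.000329, edgeR), from 18 to 35 counts per senescent library. TFDP1 (chr13:113584721-113641473, plus strand), the DP subunit that E2F dimers need to bind DNA, ranged from 87.0 through 149 to 154 CPM in DMSO_siNT and from 107 through 117 to 123 CPM in 4OHT_siNT. The overlap came from library 4-2V, at 87.0 CPM against 150 ± 3.13 (SD, n = 5) in the other growing libraries, all of which exceeded every senescent library. The difference was −0.27 ± 0.11 (adjusted p = 0.0566, edgeR) with that library and −0.37 ± 0.07 (adjusted p = 7.10e-05, edgeR) without it.

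Of the 8 members that passed the filter on low counts, 1 was called higher in senescence and 3 lower, where 23.9% of all 13136 genes tested were called higher and 28.9% lower. E2F2 and E2F8 did not pass that filter. Without library 4-2V, 9 members passed, E2F3 and E2F7 were called higher and RBL1, E2F1, E2F8, TFDP1 and LIN9 lower, beside 27.9% and 30.3% of all genes. Within the VM sets alone, with 3 growing and 6 senescent libraries, 1 of 9 members was called higher and 5 lower, beside 25.6% and 27.9% of all genes. RBL1, E2F1, E2F7 and LIN9 were called in the same direction in all 3 of these fits. In the fits with 9 members, E2F8 passed the filter only through its growing libraries, having 0 or 1 count in each 4OHT_siNT library. Its call as lower there followed from that filter and adds no support. In RNA from bulk cells, fewer cells with a transcript and less transcript per cell cannot be told apart. The change of senescent over growing cells was also compared between siRNA 2 and siRNA 4: none of 8 members was called in an interaction test (edgeR), and 0 of them had an unadjusted p under 0.05, beside 0% of all genes called.

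SMARCA4 knockdown left the 8 tested members without a called change. In 4OHT_siSMARCA4 against 4OHT_siNT, 0 were called higher and 0 lower by edgeR, where 4.99% and 5.65% of all genes were called. At an unadjusted p under 0.05 there was 1, LIN9, and DESeq2 also called 0, with 2 at an unadjusted p under 0.05. Without library 4-2V of DMSO_siNT, which enters this contrast through the shared estimate of the spread, 0 of 9 were called by edgeR in each direction, where 11.7% and 12.9% of all genes were called. The SMARCA4 transcript itself fell by 1.61 ± 0.14 on the log2 scale (adjusted p = 1.30e-06, edgeR), and its level in single knockdown libraries ran from 70.4 to 141 CPM.

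The 3 pocket transcripts after knockdown overlapped their control libraries. RBL1 ranged from 1.53 through 2.06 to 2.41 CPM, a difference of 0.24 on the log2 scale (95% interval −0.22 to 0.70) from 4OHT_siNT. RB1 ranged from 41.9 through 45.9 to 50.97 CPM, a difference of 0.17 (−0.27 to 0.61). In a fit of these 2 groups alone the RB1 interval was 0.006 to 0.33 (adjusted p = 0.115, edgeR). RBL2 ranged from 23.7 through 28.1 to 41.3 CPM, a difference of −0.19 (−0.52 to 0.13). Of the RBL2 values, 4 of 6 knockdown libraries lay below all 4OHT_siNT libraries and 2 above all of them.

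The E2Fs and their partners also overlapped. E2F1 ranged from 6.46 through 7.98 to 10.4 CPM, a difference of 0.11 (−0.19 to 0.40). E2F3 ranged from 35.8 through 42.96 to 47.4 CPM, a difference of 0.03 (−0.31 to 0.37). E2F7 ranged from 63.9 through 93.3 to 134 CPM, a difference of −0.41 (−0.92 to 0.11, adjusted p = 0.326, edgeR). Without library 4-2V of DMSO_siNT the E2F7 difference was −0.41 with a narrower interval (−0.76 to −0.07, adjusted p = 0.0742, edgeR). The intervals of E2F1 and E2F3 exclude a 1.5-fold change in either direction, and that of E2F7 does not. TFDP1 ranged from 99.0 through 106 to 120 CPM, a difference of −0.12 (−0.36 to 0.12). LIN9 ranged from 2.18 through 2.76 to 3.54 CPM, between its growing and senescent levels, a difference of 0.45 (0.07 to 0.82) whose adjusted p was 0.125 (edgeR). E2F2 had 0 to 2 counts and E2F8 0 to 3 counts in knockdown libraries, at or under the floor of 3 counts in both arms, so no fold is given.

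**Figure D3:**
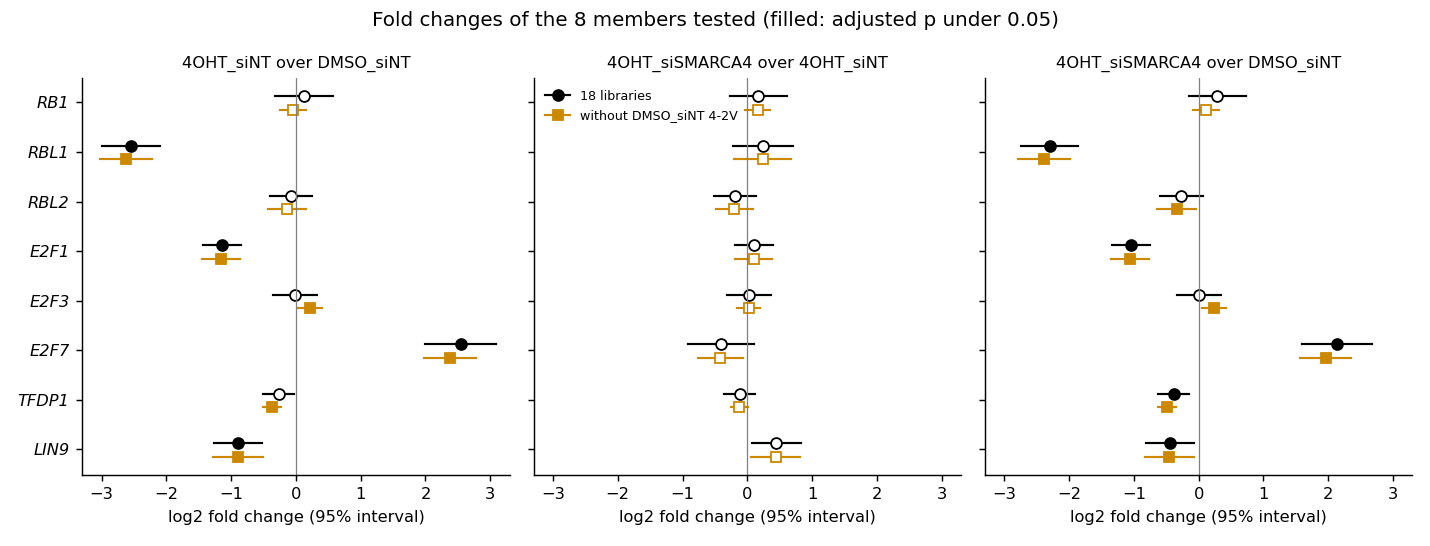
Log2 fold changes of the 8 members that passed the filter with all libraries, with 95% intervals, in the 3 comparisons, with all 18 libraries (black) and without DMSO_siNT library 4-2V (orange). Filled symbols have an adjusted p under 0.05 in edgeR. No symbol is filled for 4OHT_siSMARCA4 over 4OHT_siNT, and E2F3 and TFDP1 in senescence are filled only without 4-2V.

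E2F7 and RBL2 after knockdown differed between subsets of libraries. With siSMARCA4 2, E2F7 had 63.9, 73.9 and 77.5 CPM, below all 6 4OHT_siNT libraries. With siSMARCA4 4 it had 109, 129 and 134 CPM, within their range of 106 to 149 CPM. The control siRNAs themselves stood at 115 ± 9.91 (siNT 2) and 145 ± 3.92 CPM (siNT 4; SD, n = 3). siSMARCA4 2 against siSMARCA4 4 gave −0.78 ± 0.31 on the log2 scale for E2F7 (unadjusted p = 0.0230, adjusted p = 0.681, edgeR fitted across all genes), and the interaction with the controls taken into account gave −0.45 ± 0.43 (adjusted p = 0.933, edgeR). RBL2 had 23.7, 27.4 and 28.8 CPM with siSMARCA4 2 and 26.1, 40.3 and 41.3 CPM with siSMARCA4 4. In that group the 2 higher libraries were V sets and the lower one was the VM set.

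4OHT_siNT held VM sets only, so set letters and knockdown are partly confounded. Within VM sets alone, where 2 knockdown libraries met 6 controls, RBL2 and E2F7 were called lower by edgeR and 0 of 9 members higher, beside 12.2% and 8.76% of all genes. RBL2 changed by −0.54 ± 0.14 (adjusted p = 0.0161, edgeR) and E2F7 by −0.60 ± 0.19 (adjusted p = 0.0348, edgeR). At the same time SMARCA4 was lower in those 2 VM libraries (70.4 and 87.0 CPM) than in the 3 V libraries (92.7 to 141 CPM). The part that SMARCA4 level or set played was not tested.

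LIN9 was also lower with siSMARCA4 2 than with siSMARCA4 4. It had 2.18, 2.36 and 2.55 CPM with siSMARCA4 2 against 2.26, 2.42 and 2.44 CPM with siNT 2, a log2 difference of 0.00 ± 0.22. It had 2.97, 3.37 and 3.54 CPM with siSMARCA4 4 against 1.34, 1.88 and 2.12 CPM with siNT 4, with no overlap and a difference of 0.87 ± 0.22 (adjusted p = 0.0424, edgeR). The interaction, siRNA 2 minus siRNA 4, was −0.87 ± 0.31 (unadjusted p = 0.0118, adjusted p = 0.496, edgeR fitted across all genes). In that test 0 of 8 members were called, 1 had an unadjusted p under 0.05, and 0.0146% of all genes were called.

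**Figure D4:**
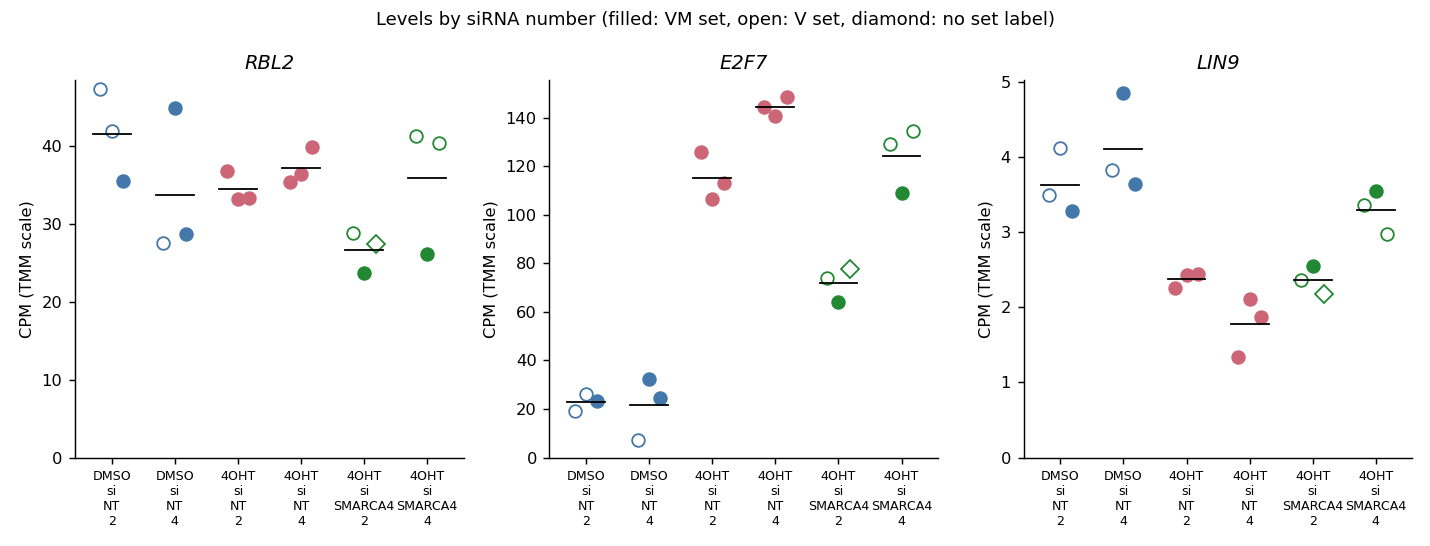
CPM of RBL2, E2F7 and LIN9 by group and siRNA number (the last line of each axis label), each panel from 0, with group means as lines (n = 3). Filled circles are VM sets, open circles V sets and the diamond is the unlabelled library. E2F7 lay at 63.9 to 77.5 CPM with siSMARCA4 2 and at 109 to 134 CPM with siSMARCA4 4.

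Senescent cells with SMARCA4 knockdown also differed from growing cells at these genes. E2F7 was called higher and RBL1, E2F1, TFDP1 and LIN9 lower, where 23.3% of all genes were called higher and 27.3% lower. E2F7 was 4.41-fold higher than in DMSO_siNT (log2 2.14 ± 0.26), and RBL1 stood at 20.2% and E2F1 at 48.6% of the growing level. RBL1 changed by −2.30 ± 0.21 and E2F1 by −1.04 ± 0.14. TFDP1 changed by −0.38 ± 0.11 (adjusted p = 0.00865, edgeR) and LIN9 by −0.45 ± 0.18 (adjusted p = 0.0400, edgeR). LIN9 was not called in 16 of 35 alternatives, such as VM sets alone (−0.38, adjusted p = 0.328, edgeR) or the 2 groups without library 4-2V (−0.41, adjusted p = 0.0634, edgeR). TFDP1 was not called with siRNA 4 alone, when set labels entered as a replicate block (−0.41, adjusted p = 0.0792, edgeR) or with a 1.5-fold minimum. E2F2 was 18.8 times (95% counting interval 7.04 to 70.9) and E2F8 16.6 times (8.17 to 39.3) as high in growing as in knockdown cells. Without library 4-2V, 2 of 9 members were called higher, E2F3 and E2F7, and 6 lower, with RBL2 (−0.34 ± 0.14, adjusted p = 0.0478, edgeR) and E2F8 added, beside 28.7% and 30.5% of all genes. E2F8 passed the filter in that fit only through its growing libraries, so its call adds no support. This comparison shares its libraries with the other 2, so its values are not separate evidence.

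The rest of the network was read from lists of genes. Of 12 other E2F, DP and DREAM genes, 11 were tested in senescence. Of these, 3 rose and 6 fell, beside 23.9% of all genes called higher and 28.9% lower. The median was −0.48 against −0.05 over all genes. The B-MYB gene MYBL2, which takes over MuvB in S phase, fell from 16.5 to 0.320 CPM (log2 −5.63 ± 0.40), and FOXM1, the activator of mitotic genes, from 39.7 to 3.06 CPM (−3.70 ± 0.30). The MuvB subunits LIN52 (−0.77) and LIN54 (−0.48) and the DP gene TFDP2 (−1.0) fell as well. In the other direction, LIN37 (0.58), another MuvB subunit, E2F6 (0.56), a repressor that works without pocket proteins, and E2F4 (0.39), the main E2F of DREAM, rose. E2F5 (−0.39) and RBBP4 (−0.18) did not pass the test, and TFDP3 had no counts. Without library 4-2V, RBBP4 was called lower as well (−0.17 ± 0.07, adjusted p = 0.0442, edgeR). In that fit LIN52 was −0.61, LIN54 −0.48, TFDP2 −0.73, LIN37 0.50, E2F6 0.39 and E2F4 0.31, all still called. MYBL2 was −5.72 and FOXM1 −3.86. TFDP2 was 59.8 CPM in 4-2V against 26.6 ± 6.18 (SD, n = 5) in the other growing libraries.

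Upstream of RB, 5 of 17 cyclin, kinase and inhibitor genes rose in senescence and 7 fell, around a median of 0.06. For this list and those below, 23.9% of all genes were called higher and 28.9% lower. CDKN2B, which encodes the CDK4 and CDK6 inhibitor p15, rose from 24.4 to 391 CPM (4.00 ± 0.11), and CDKN1A, which encodes p21, from 937 to 2294 CPM (1.29 ± 0.10). CCNA2 (−4.44 ± 0.23) and CCNE2 (−4.10 ± 0.32), the S phase cyclins A2 and E2, fell the most. All 26 G1/S target genes of E2F were called lower, with a median of −1.69, led by the thymidine kinase TK1 (−5.12 ± 0.32) and the replication factor MCM10 (−4.90 ± 0.38). All 20 G2/M genes of MuvB, MYBL2 and FOXM1 were called lower too, with a median of −4.20, led by the mitotic kinase CDK1 (−5.38 ± 0.30) and survivin, BIRC5 (−5.10 ± 0.32). Of 12 co-repressors that bind pocket proteins, the H3K4 demethylase KDM5B was called higher (0.62 ± 0.13) and ARID4A (−1.03 ± 0.37) and the H3K9 methyltransferase SUV39H1 (−0.46 ± 0.15) lower, with a median of −0.19. ARID4A rested on library 4-2V, where it was 137 CPM against 26.9 ± 6.26 (SD, n = 5) in the other growing libraries. Without that library it was not called (−0.29 ± 0.16, adjusted p = 0.127, edgeR), while the demethylase KDM5A (0.22 ± 0.08) and the scaffold SIN3B (0.26 ± 0.08) were called higher. In that fit 3 of 12 were higher and 1 lower, with a median of −0.04, beside 27.9% and 30.3% of all genes.

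**Figure D5:**
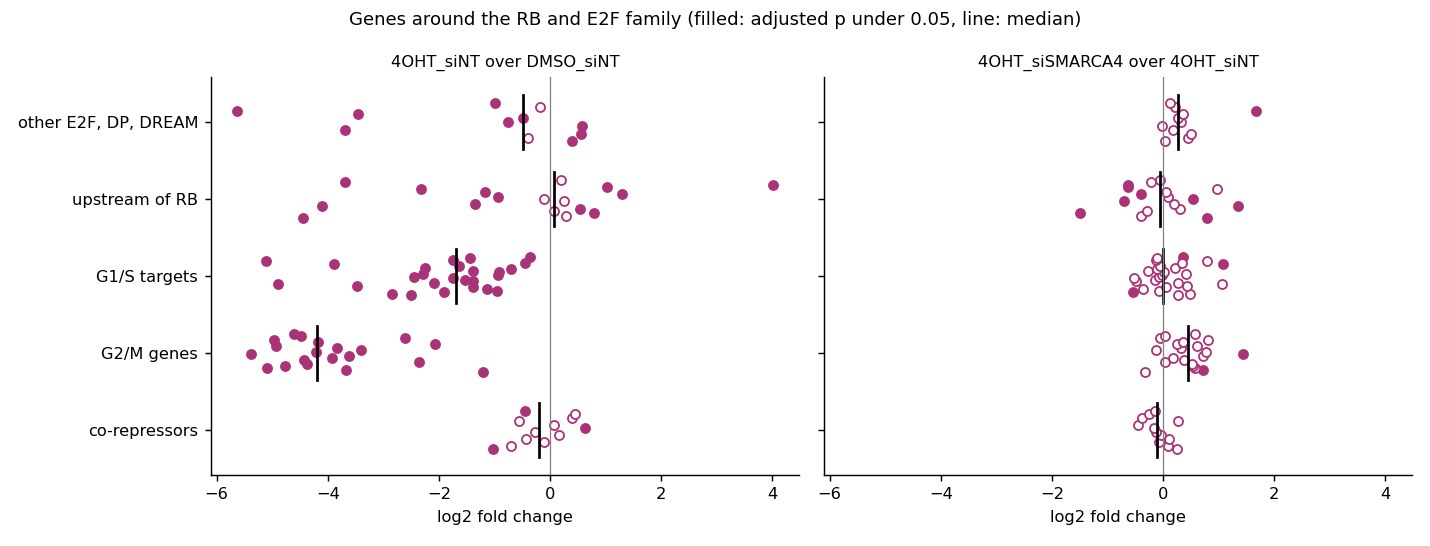
Log2 fold changes of the genes of 5 lists in 4OHT_siNT over DMSO_siNT (left) and 4OHT_siSMARCA4 over 4OHT_siNT (right). Each point is a gene, filled where the adjusted p was under 0.05 in edgeR, and black lines are list medians. All 26 G1/S and all 20 G2/M genes lie below 0 on the left, while on the right the medians are −0.01 and 0.44 and most points are open.

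After SMARCA4 knockdown in senescent cells, MYBL2 was called higher among the 11 E2F, DP and DREAM genes tested, from 0.320 to 1.08 CPM (1.67 ± 0.46, adjusted p = 0.0237, edgeR), which left it below the 16.5 CPM of growing cells. MYBL2 had only 2 to 9 counts per 4OHT_siNT library and 4 to 22 per knockdown library, and the 2 groups overlapped. With all libraries, those not called were E2F4 (0.03), E2F5 (0.45), E2F6 (0.50), TFDP2 (0.12), LIN37 (−0.02), LIN52 (0.33), LIN54 (0.27), RBBP4 (0.21) and FOXM1 (0.18). Without library 4-2V, 4 of 11 were called higher and 0 lower, with E2F5 (0.44 ± 0.16), E2F6 (0.49 ± 0.10) and RBBP4 (0.20 ± 0.07) added. In that fit 11.7% of all genes were called higher and 12.9% lower. Within VM sets alone 3 of 11 were called higher, beside 8.76% of all genes. Of 17 genes upstream of RB, 3 were called higher, led by CCNE2 (1.35 ± 0.35) and CCNA2 (0.80 ± 0.24), and 5 lower, led by the cyclin D2 gene CCND2 (−1.49 ± 0.31) and CDK2 (−0.71 ± 0.16). These shares compare with 4.99% and 5.65% of all genes. Without library 4-2V, 5 were called higher and 7 lower, beside 11.7% and 12.9% of all genes, with the cyclin E1 gene CCNE1 (0.30) and CDKN1C, which encodes p57 (0.96), added to the higher ones and the cyclin D genes CCND1 (−0.41) and CCND3 (−0.29) to the lower ones. The median was −0.05 with all libraries and −0.06 without 4-2V. With all libraries, the other gene called higher was CDK4, at 0.52 without 4-2V. The others called lower were the inhibitor genes CDKN1A, CDKN2A and CDKN2B, at −0.40, −0.65 and −0.64 without 4-2V.
Of 26 G1/S targets, the ribonucleotide reductase subunit RRM2 (1.07 ± 0.23) and the uracil glycosylase UNG (0.36 ± 0.10) were called higher and the licensing factor CDT1 (−0.54 ± 0.14) lower, with a median of −0.01. The shares over all genes were 4.99% and 5.65%. Without library 4-2V, 3 of 26 were called higher, with SLBP (0.34 ± 0.09) added, and 3 lower, with the helicase genes MCM3 (−0.50 ± 0.13) and MCM5 (−0.53 ± 0.16) added. Beside these stood 11.7% and 12.9% of all genes. Of 20 G2/M genes, CDK1 (1.44 ± 0.33, from 0.599 to 1.66 CPM) and the kinase AURKB (0.71 ± 0.22) were called higher and none lower, with a median of 0.44 beside 0.01 over all genes. Without library 4-2V, 4 of 20 were called higher, with TOP2A (0.79) and CENPE (0.75) added, and AURKA (−0.33) was called lower, beside 11.7% and 12.9% of all genes. Of 12 co-repressors 0 were called by edgeR, where 2 had an unadjusted p under 0.05 and DESeq2 called 1. SIN3A (−0.39), SIN3B (−0.27) and PML (−0.47) were called lower without library 4-2V, beside 12.9% of all genes.

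The genes whose profiles were most like those of the members were taken as the 2 with the smallest root mean square difference of centred log2 CPM over the 18 libraries. For RBL1 these were SPAG5 (0.28), a spindle protein gene, and the replicative helicase gene MCM6 (0.30), where RBL1 itself had a spread of 1.13. For E2F7 they were ENC1 (0.29) and RAC2 (0.30), against its own spread of 1.26. E2F1 came closest to TUBA1B (0.17), an alpha tubulin gene, and PCYT2 (0.22), with a spread of 0.55, and LIN9 to RNF138 (0.20) and GMFB (0.21), with a spread of 0.43. RB1 was closest to HPS5 and TM9SF4, RBL2 to ZNF275 and APBB2, E2F3 to PAFAH2 and USP8 and TFDP1 to TRMT13 and GORASP2, at 0.09 to 0.12. These likenesses span libraries that also share group and depth.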

How the data were processed

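Polyadenylated RNA of IMR90 ER:RAS cells was made into directional libraries and sequenced as single-end reads by the authors, whose processing notes name STAR 2.7.8a, DESeq2 1.36.0 and hg38. The annotation, the counting program and its strand setting are not given in the sources used here. The authors deposited raw, unnormalized counts for each gene symbol and lane. The 36 columns were summed over lanes to 18 libraries, 17 of which matched a sample by title. Of the 29 labelled samples, the others were not analysed here. The unlabelled library counted as a replicate of 4OHT_siSMARCA4. The 2 lanes of a library differed by a chi-square of 1.19 to 1.27 per degree of freedom and pairs of libraries of a group by 2.33 to 315, so none was counted as a duplicate.

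Genes were filtered with filterByExpr (minimum count 10), which kept 13136 genes with 99.9% of counts, and scaled with TMM. Group differences came from edgeR 4.0.16 (R 4.3.3, quasi-likelihood test) fitted to all libraries at once, without covariates, followed by Benjamini-Hochberg adjustment over the genes that passed the filter. Called means an adjusted p under 0.05. Standard errors and 95% intervals were derived from the F statistic. Levels are CPM on the TMM scale, divided by exon length (GENCODE on GRCh38) where genes are compared. Ratios of low counts have exact binomial intervals on summed counts. On simulated data with 200 genes changed 2-fold in the knockdown comparison, edgeR recovered 81.5% among 13040 genes, with 2.98% of calls false, and DESeq2 1.42.0 recovered 87.0% with 13.4% false. Libraries with more counts give more precise values, and low members (RBL1, LIN9, E2F2, E2F8) are the least precise.

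The members, the lists of related genes and the tests were chosen with earlier results of these data known. The named genes are the members, SMARCA4, direct partners of the members, and per list and comparison the called genes that rose most (2) and fell most (2). Further genes were named where their call changed without library 4-2V. CDK4, CDKN1A, CDKN2A and CDKN2B complete the genes upstream of RB that were called after knockdown. Alternatives covered scaling, DESeq2, filters, the libraries fitted, a replicate block, siRNA number, thresholds and leaving out each library. Fits that combined VM sets with the unlabelled library, or left out DMSO_siNT 4-2V together with another change, were chosen after seeing the data. Deviations from group means in libraries that share a set label correlated at a median of 0.035 (15 pairs, −0.29 to 0.30). For the 93 pairs without a shared label the median was −0.001. These were not tested against each other, and sets were not treated as pairs.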

Additional observations from a re-analysis of the deposited data

Results flagged for a closer look

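Values of the members were examined in 26 sets, each a gene in a group of 6 libraries, for a highest or lowest library that lay far from the others, on the log2 scale. A gap of over 0.625 of the whole range was taken as far. Such a gap appeared in 4 sets, where chance gives about 1.3, and all 4 concerned DMSO_siNT library 4-2V. For RB1 it was the lowest, at 11.95 CPM, with a gap of 0.699 of the range. For E2F3 it was the highest, at 74.8 CPM, with a gap of 0.818. For E2F7 it was the lowest, at 7.29 CPM, with a gap of 0.641. For TFDP1 it was the lowest, at 87.0 CPM, with a gap of 0.922. In the same library E2F1, at 15.9 CPM, and LIN9, at 3.82 CPM, lay within the range of the other growing libraries. The cause was not tested.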

How the results depend on the processing

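Across the settings, RBL1, E2F1, E2F7 and LIN9 kept their direction and their call in senescence under all 35 alternatives. Members called lower in senescence went from 3 to 5 with DESeq2, all genes with a count, VM sets alone, siRNA 2 alone, siRNA 4 alone, VM sets with the unlabelled library, the 2 groups compared without DMSO_siNT 4-2V, and the replicate block without it, and to 6 with all genes with a count and without it. E2F2 and E2F8 enter under those with a looser filter or fewer samples, and TFDP1 where 4-2V is left out. Both E2F2 and E2F8 had 2 counts or fewer in each 4OHT_siNT library and entered through their growing libraries. The fits with 5 or 6 members lower called 17.9% to 31.0% of all genes lower, against 28.9% in the main fit. Members called higher in senescence went from 1 to 2 in the 2-group fit without 4-2V, beside 28.2% of all genes. E2F3 in senescence turned from −0.02 to 0.22 both there and without 4-2V alone, and leaving out each library in turn gave −0.068 to 0.22. Other fits that lack 4-2V called only 1 member higher, E2F7, beside 18.6% to 26.3% of all genes. These were VM sets alone, VM sets with the unlabelled library, the replicate block without 4-2V and all genes with a count without 4-2V.

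After knockdown, members called lower went from 0 to 2 with VM sets alone and to 3 with the unlabelled library added (RBL2, E2F7 and TFDP1). The share of all genes called lower went from 5.65% to 12.2% and to 16.7% in these fits. Members called higher went from 0 to 1 with siRNA 4 alone (LIN9) and to 1 with VM sets and the unlabelled library (E2F8, from 3 counts or fewer per library). There, 1.54% and 13.6% of all genes were called higher, against 4.99% in the main fit. Against growing cells, members called higher went from 1 to 2 with siRNA 4 alone (RB1 and E2F7), VM sets with the unlabelled library, the 2 groups without 4-2V and all genes without 4-2V. The 3 growing libraries with siRNA 4 include 4-2V, where RB1 was 11.95 CPM. With both siRNAs and without 4-2V, RB1 was not called (0.11, −0.09 to 0.31, adjusted p = 0.353, edgeR). The fits with 2 members higher called 18.8% to 29.5% of all genes higher, against 23.3% in the main fit. Members called lower went from 4 to 7 with siRNA 2 alone and to 2 with a 1.5-fold minimum. Beside these, 22.3% and 21.3% of all genes were called lower, against 27.3% in the main fit. LIN9 against growing cells lost its call in 16 of 35 alternatives. The cause of these shifts was not tested.

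Leaving out each library in turn gave 3 to 5 members lower and 1 to 2 higher in senescence, 0 to 0 in each direction after knockdown, and 3 to 6 lower and 1 to 2 higher against growing cells, and the 2 higher came from leaving out DMSO_siNT 4-2V. Of all genes, these fits called 26.6% to 30.3% lower and 22.3% to 27.9% higher in senescence. Against growing cells they called 25.8% to 30.5% lower and 21.6% to 28.7% higher. After knockdown they called 4.02% to 12.9% lower and 2.89% to 11.7% higher. The set label as a replicate block, which drops the unlabelled library, gave 4 members lower and 1 higher in senescence and 0 after knockdown. With the block, 17.5% of all genes were called lower and 15.2% higher in senescence, and 1.13% and 0.638% after knockdown. Against growing cells, TFDP1 under this block was −0.41 (adjusted p = 0.0792, edgeR) and LIN9 −0.30 (adjusted p = 0.356, edgeR). Whether libraries of a set share an effect was not tested, so a call lost under the block is read neither as a weaker effect nor as an intact one. Counts per library limit RBL1 and LIN9 in 4OHT cells, and E2F2 and E2F8 after knockdown rest on 3 counts or fewer per library in both 4OHT groups.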
